A study of Drosophila melanogaster with 2 samples.

Results

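Of the 1996 peaks that passed the authors' threshold in biological replicate 1 and lay on the 6 main chromosome arms, 627 (31.4%) shared no base with any thresholded peak of replicate 2. The other 1369 (68.6%) shared at least 1 base with one. The peaks called in replicate 1 only were selected on measured values, namely on which peaks passed the threshold in each replicate. Both replicates were chromatin immunoprecipitations followed by sequencing (ChIP-seq) from whole Drosophila melanogaster embryos, 0 to 24 h old, of the same strain, CG10321-GFP, in which a transgene makes the CG10321 protein fused to enhanced green fluorescent protein (eGFP). An antibody against GFP was used, so what was measured is the tagged protein and not the native one. Sonicated chromatin of 200 to 800 bp was used in both. The study has 1 group with n = 2, and no control library was analysed here. The replicate 1 list held 2003 peaks and the replicate 2 list 2133, of which 7 and 5 lay off the main arms. No read counts are in the lists, so the depth of each library is unknown, and the intervals below reflect counting error alone. Peaks of a list are not biological replicates: each test below compares lists from 1 or 2 libraries, not embryos.

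A ChIP-seq peak marks DNA that was recovered above background with a tagged protein, either because the protein binds there or because it sits in a complex with others that do. Libraries of the same material rarely give identical lists, and peaks near a threshold are the most likely to be called in only some of them. Promoters of highly expressed housekeeping genes, ribosomal protein genes among them, are open chromatin in nearly every cell, and in flies many hold the DNA replication-related element (DRE), bound by Dref, or sites of BEAF-32. GA repeats are bound by GAGA factor, the product of Trl, which keeps promoters and enhancers accessible.

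The DNA under the summits of peaks called in replicate 1 only is shown first, as the summit, the position of highest signal, with 50 bases to each side. Sequences are from the RefSeq copy of dm6, written 5′ to 3′ on the strand of the gene with the nearest transcription start site (TSS). The first set shows ribosomal protein genes, because this gene group held the most members. Capitals mark the 11 bases around the annotated TSS nearest to the summit.
RpS21, chr2L:2856020-2856120, plus strand: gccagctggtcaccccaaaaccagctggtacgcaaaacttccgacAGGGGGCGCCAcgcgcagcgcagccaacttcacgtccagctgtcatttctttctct
RpL37A, chr2L:5070895-5070995, plus strand: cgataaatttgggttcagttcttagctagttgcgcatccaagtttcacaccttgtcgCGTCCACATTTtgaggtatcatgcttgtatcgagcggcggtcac
RpS4, chr3L:13041734-13041834, plus strand: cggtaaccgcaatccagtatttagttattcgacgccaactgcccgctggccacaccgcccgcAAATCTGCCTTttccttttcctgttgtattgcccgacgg
RpL17, chrX:6744228-6744328, minus strand: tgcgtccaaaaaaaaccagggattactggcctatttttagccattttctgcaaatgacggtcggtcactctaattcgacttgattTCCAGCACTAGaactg

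The second set shows members that hold the DRE, whose share differed between members and shared peaks. Capitals mark its letters, TATCGATA.
eEF1gamma, chr3R:29220105-29220205, plus strand: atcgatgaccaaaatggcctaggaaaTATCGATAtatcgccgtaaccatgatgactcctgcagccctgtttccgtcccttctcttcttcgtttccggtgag
RpS29, chr3R:9777984-9778084, plus strand: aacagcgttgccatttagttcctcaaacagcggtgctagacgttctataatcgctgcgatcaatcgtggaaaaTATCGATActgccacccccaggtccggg
eIF2A, chr3L:21824867-21824967, plus strand: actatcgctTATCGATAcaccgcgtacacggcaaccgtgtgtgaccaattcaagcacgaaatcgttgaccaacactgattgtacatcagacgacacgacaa
RpS15Aa, chrX:13337643-13337743, minus strand: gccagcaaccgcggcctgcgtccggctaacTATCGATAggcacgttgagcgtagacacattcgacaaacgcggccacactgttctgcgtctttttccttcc

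The next sequence shows a strong member with a GA repeat. Capitals mark GAGAGAG or its reverse complement CTCTCTC, with overlapping matches joined.
nej, chrX:9686334-9686434, minus strand: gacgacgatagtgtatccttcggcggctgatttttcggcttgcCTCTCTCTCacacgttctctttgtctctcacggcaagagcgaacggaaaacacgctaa

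For contrast, the next set shows peaks called in replicate 2 only with the letters TATAAA or the reverse complement TTTATA in capitals. Their GC content was 31.7% and 34.7%, against 42.6% to 59.4% in the first set. These examples were chosen for holding letters of A and T alone, so their GC content does not stand for all peaks called in replicate 2 only.
Ptpmeg2, chrX:9640770-9640870, minus strand: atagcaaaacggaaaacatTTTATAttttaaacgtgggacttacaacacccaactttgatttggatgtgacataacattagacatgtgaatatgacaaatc
CG10413, chr2L:18605073-18605173, minus strand: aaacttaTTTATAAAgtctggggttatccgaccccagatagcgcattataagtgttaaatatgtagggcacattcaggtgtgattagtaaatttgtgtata

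The last sequence is the strongest member that lay far from every replicate 2 peak, with GCCAT, the core of the Pho site, or its reverse complement ATGGC in capitals.
fd102C, chr4:844644-844744, minus strand: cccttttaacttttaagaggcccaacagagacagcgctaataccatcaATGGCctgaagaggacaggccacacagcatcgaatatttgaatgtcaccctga

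The peaks called in replicate 1 only lay mostly among the weaker peaks of their list, with 3 among its strongest 499. Each peak carries a signal value given by the authors' peak caller. No source used here states the scale of that value. Each peak also carries a score that ends at 1000, taken to be a scaled irreproducible discovery rate because the deposited file lists name that measure, and 830 was the lowest score in a thresholded list. The median signal of the 627 members was 48.6 (quartiles 42.4 and 58.8, range 2.06 to 318). The median of the 1369 shared peaks was 99.9 (quartiles 63.6 and 238, highest 2710). Because the threshold that chose the members acts on these values, they describe the members and were not tested. Cut by signal into 4 classes of 499 peaks, the replicate 1 list held 337 members in its weakest class (67.5%), 220 in the second (44.1%), 67 in the third (13.4%) and 3 in the strongest (0.601%). The replicate 2 list showed 67.9%, 50.6%, 18.4% and 0.564% in the same order for its own 731 peaks without a replicate 1 partner. A score of 1000 was held by 402 members (64.1%), against 93.1% of the shared peaks. Nearly all members, 614 of 627, had the width of 290 bp that was most frequent in the list, against 761 of 1369 shared peaks. Likewise, 721 of the 731 peaks called in replicate 2 only had 344 bp, the most frequent width among them.

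**Figure D1:**
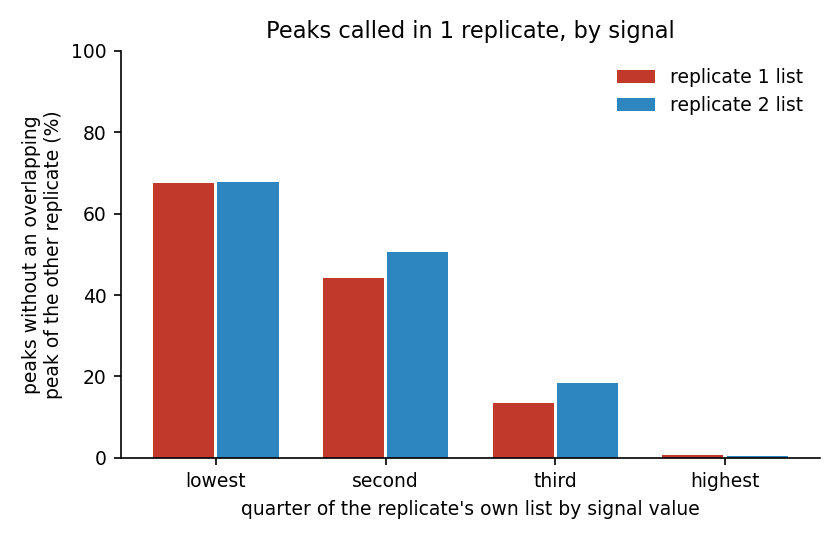
Share of thresholded peaks with no overlapping peak of the other replicate (vertical axis, %) in each of 4 equal classes of the list by signal value (horizontal axis), for replicate 1 (red bars) and replicate 2 (blue bars). The share falls from 67.5% in the lowest to 0.601% in the highest class of replicate 1, and from 67.9% to 0.564% in replicate 2.

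Most members overlapped a lower-scoring peak in replicate 2. The ranked list of replicate 2, which also holds peaks below the threshold (94139 on the main arms), contained a peak that overlapped 557 of the 627 members (88.8%). That list is long, so an overlap with it alone says little. The best overlapping ranked peak scored a median of 177 (quartiles 34 and 528), and 132 members had one that scored at least 540. Its signal in replicate 2 had a median of 31.1, and its rank had a median of 3839 and a best value of 1012. The authors' conservative list, which draws on both replicates, overlapped 385 members (61.4%) and 1352 shared peaks (98.8%). The remaining 70 members overlapped no ranked peak of replicate 2. Their median signal was 46.1, 45 of them lay within 500 bp of a TSS, and 12 overlapped the conservative list.

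Not all members lay far from replicate 2 peaks. The distance to the nearest thresholded replicate 2 peak had a median of 10723 bp, and 98 members lay within 1000 bp of one. Distances run between the nearest end bases of the peaks. Nearest to the rule's limit was the member at Sp1, at a distance of 6 bp and with a signal of 317.5. Sp1 encodes a zinc-finger transcription factor needed for leg growth. Next were the members at CG17574, at 7 bp with a signal of 168.7, and at hth, a homeodomain gene, at 16 bp (signal 54.7). Just outside the rule, a peak at lncRNA:CR44867 with a signal of 84.98 shared 17 bp with a replicate 2 peak, and a peak at CG43245 with a signal of 26.0 shared 35 bp. By score, the members nearest to the threshold lay at zf30C, whose overlapping replicate 2 peak scored 828, at zfh2 (826), at chrb (822) and at Mi-2 (819), a chromatin remodeller gene. Within the replicate 1 list itself, 40 members overlapped another row. Of the 23 members with a signal below 25, 20 did so.

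Of the 20 strongest members, 15 overlapped the conservative list, 10 lay within 500 bp of a TSS, and 5 lay within 100 bp of a replicate 2 peak. The strongest, at chrX:9729019-9729289 in intergenic DNA with its summit at -502 bp from the Sp1 TSS, was the one 6 bp from a replicate 2 peak. The peak in the promoter region of nej, which encodes the histone acetyltransferase CBP, had a signal of 134.0 and ended 77 bp from one. A peak of signal 133.3 nearest to CG7567 lay in intergenic DNA, 84 bp from one.

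Among the 20 strongest members, 1 had no ranked peak in replicate 2 and lay more than 100 bp from every thresholded one. At fd102C, which encodes a forkhead-domain transcription factor, the peak at chr4:844619-844794 had a signal of 243.9 in replicate 1, rank 339 of its list. Its summit lay at -165 bp from the TSS. Replicate 2 had no ranked peak there, its nearest thresholded peak was 36486 bp away, and the conservative list did not hold it either.

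Other strong members had a ranked peak below the threshold in replicate 2. At eEF1gamma, which encodes a subunit of the translation elongation factor eEF1, the signal was 131.8 in replicate 1 and 55.3 in replicate 2, where the score was 793. At RpS21, a small-subunit ribosomal protein gene, the signals were 110.6 and 41.8, with a replicate 2 score of 800. A peak in an intron, nearest to the TSS of Raf, the kinase upstream of MEK in the MAP kinase cascade, had signals of 107.4 and 36.7 and a replicate 2 score of 650. The peak whose summit was at -1157 bp from the TSS of ph-d, a Polycomb group gene, had signals of 92.0 and 28.8 and a replicate 2 score of 402. A peak in an intron, nearest to the TSS of pdm3, a POU-domain gene, had signals of 88.9 and 27.8 and a replicate 2 score of 26. The members were selected to lack a thresholded peak in replicate 2, and no source used here states whether the replicates share a scale, so nothing is read from these pairs of signals. The others of the 20 strongest lay at path, an amino acid transporter gene (123.3), CG14434 (116.4), CG33777 (113.8), jef (103.8), RpL31 (103.7), lncRNA:CR45480 (100.9), Pp1-87B, a protein phosphatase gene (99.1), CG3092 (90.2), CG32512 (89.6) and RpL37A (88.8), each given with its signal in replicate 1.

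Among 15 gene lists, that of cytoplasmic ribosomal proteins, the building blocks of the ribosome, had the highest share of genes at these peaks. A gene counted as bound if any of its TSSs had a summit no more than 500 bp away. By that rule the members bound 367 of 13945 protein-coding genes (2.63%), the shared peaks 769 (5.51%) and the peaks called in replicate 2 only 394 (2.83%). Of 93 cytoplasmic ribosomal protein genes, 30 (32.3%, Wilson 95% interval 23.6 to 42.3) were bound by members, 17 (18.3%, 11.7 to 27.3) by shared peaks and 2 (2.15%, 0.592 to 7.51) by peaks called in replicate 2 only. No test was run on any gene list, because the lists were written with earlier results of these data known. The other 44 ribosomal protein genes had no thresholded summit in range.

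The 30 genes covered both subunits. Their signals in replicate 1 had a median of 59.5 and were highest at RpS21, with 110.6. In 27 of them replicate 2 had a ranked peak under the member, with a score of 25 to 800 (median 127) and a signal of 3.79 to 53.4 (median 32.7). RpL9, RpS27A and RpL10 had none. At RpL31 the signal was 103.7 in replicate 1 and 34.4 in replicate 2. At RpL37A it was 88.8 and 17.5. At RpS4 it was 87.7 and 39.4. Members were selected to lack a thresholded replicate 2 peak, and a shared scale is not stated, so nothing is read from these pairs. The 17 ribosomal protein genes at shared peaks had signals in replicate 1 from 53.3 to 170 with a median of 78.1. The 2 genes bound in replicate 2 only were RpL11 with a signal of 57.3 and RpL19 with 49.96.

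**Figure D2:**
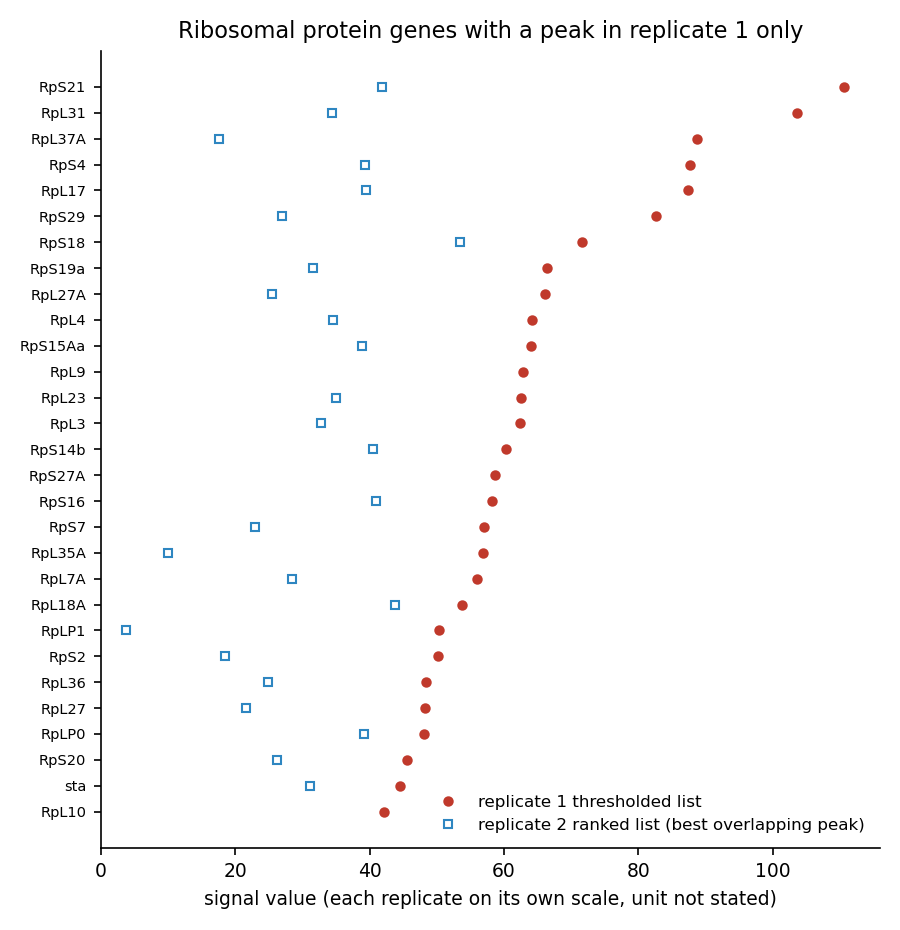
Signal value (horizontal axis, the scale of the authors' peak caller) at 29 of the 30 cytoplasmic ribosomal protein genes with a peak called in replicate 1 only (1 gene per line), in the thresholded list of replicate 1 (red points) and in the best overlapping peak of the replicate 2 ranked list (blue squares, 26 genes). Replicate 1 values run from 42.1 to 110.6 and replicate 2 values from 3.79 to 53.4, and RpL9, RpS27A and RpL10 have no square. The genes were selected to lack a thresholded replicate 2 peak, and a shared scale is not stated, so nothing is read from the pairs.

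Translation factor genes were the next group. Of 52, 8 (15.4%, Wilson 95% interval 8.01 to 27.5) were bound by members, 5 by shared peaks and 1, eEF1alpha1, which also had a member, by a peak called in replicate 2 only. Beside eEF1gamma, the strongest were eEF1alpha1, the elongation factor that brings aminoacyl-tRNA to the ribosome, with a signal of 83.6, eIF2A with 76.5, and eIF4E1, the cap-binding protein, with 70.9. The other 4 were eEF5, eIF3b, eIF3a and eEF1alpha2. Of 73 mitochondrial ribosomal protein genes, none was bound by a member (Wilson upper bound 4.999%) and 8 by shared peaks. Of 32 tRNA synthetase genes, none was bound by a member (upper bound 10.7%) and 1 by a shared peak. Both bounds lie above 2.63%, the share of all protein-coding genes bound by members. These counts therefore do not set either list below that share.

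Groups of developmental and chromatin genes followed the order of all protein-coding genes, with more of them at shared peaks than at members. Of 40 patterning genes, 2 were bound by members and 22 by shared peaks. The 2 were hb, a gap gene, with a signal of 46.6 and gt, another gap gene, with 41.2. Of 20 insulator protein genes, none was bound by a member and 7 by shared peaks. Of 24 Polycomb and trithorax group genes, 1, Su(z)2 with a signal of 45.02, was bound by a member, and 6, Su(z)2 among them, by shared peaks. Of 24 heat shock genes, none was bound by a member (upper bound 13.8%) and 5 (20.8%) by shared peaks.

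In the remaining lists the counts were too small to set a share apart from the 2.63% of all protein-coding genes. Members bound 2 of 48 proteasome genes (Rpn3 with a signal of 54.1 and Rpn5 with 41.1), 2 of 80 respiratory chain genes (COX6B with 50.1 and ATPsynF with 41.8) and 2 of 40 Mediator and TFIID genes (MED6 with 49.8 and Taf4 with 49.6). The Wilson intervals of these shares were 1.15 to 13.98%, 0.688 to 8.66% and 1.38 to 16.5%. Members also bound 2 of 29 spliceosome genes (Prp3 with 66.7 and SmD3 with 59.6), 1 of 25 cell cycle genes (stg, the Cdc25 phosphatase gene, with 48.7), and no gene of 20 neural or 18 muscle genes, of which shared peaks bound 3 and 3. For spliceosome and cell cycle genes the intervals were 1.91 to 21.96% and 0.7096 to 19.5%. The upper bounds for neural and muscle genes were 16.1% and 17.6%, both above 2.63%.

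Similar shares of members and shared peaks were near a TSS, and the members' summits sat closer to it. Summits no more than 500 bp from a TSS made up 315 of 627 members (50.2%, Wilson 95% interval 46.3 to 54.1) and 696 of 1369 shared peaks (50.8%, 48.2 to 53.5). The odds ratio was 0.976 (0.808 to 1.18; adjusted p = 0.81, two-sided Fisher's exact test with Benjamini-Hochberg adjustment). Its interval leaves room for a difference of either sign, and the ratio passed 1 under 3 alternatives given in the closing section. Against the 731 peaks called in replicate 2 only, of which 346 (47.3%) were near a TSS, it was 1.12 (0.907 to 1.39; p = 0.30, Fisher's exact test). Within 200 bp of a TSS this ratio was 1.52 (p = 0.00030, Fisher's exact test), the only alternative that gave a call. Within 1000 bp it was 1.15 (p = 0.22, Fisher's exact test).

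Which side of the TSS the summit lay on differed. Among members near a TSS and not exactly on it, 196 of 312 (62.8%, 57.3 to 68.0) lay upstream, against 538 of 695 shared peaks (77.4%, 74.2 to 80.4). The odds ratio was 0.493 (0.369 to 0.659; adjusted p = 7.86e-06, Fisher's exact test). When both sets were kept to signals between the quartiles of the members, 42.4 to 58.8, the ratio was 0.602 and the call was lost (adjusted p = 0.23, Fisher's exact test, with 159 members and 104 shared peaks). Signal moves with membership, so its part in the difference cannot be told apart from that of membership over the full range.

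The median summit position relative to the TSS was -25 bp for members, -112 bp for shared peaks and -131.5 bp for peaks called in replicate 2 only. In 113 of 315 members near a TSS (35.9%, 30.8 to 41.3) the summit was within 50 bp of it. That held for 92 of 696 shared peaks (13.2%, 10.9 to 15.9), for 38 of 346 peaks called in replicate 2 only (11.0%, 8.11 to 14.7) and for 12.8% of the shared peaks of the replicate 2 list. The 50 bp limit was chosen after the distribution had been seen, so no test is given. At ribosomal protein genes the median position of members was -22 bp, with 21 of 30 summits within 50 bp, and that of shared peaks was -40 bp, with 10 of 17 within 50 bp. Without their promoters, 92 of 285 members (32.3%) were within 50 bp and 174 of 283 (61.5%) upstream.

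**Figure D3:**
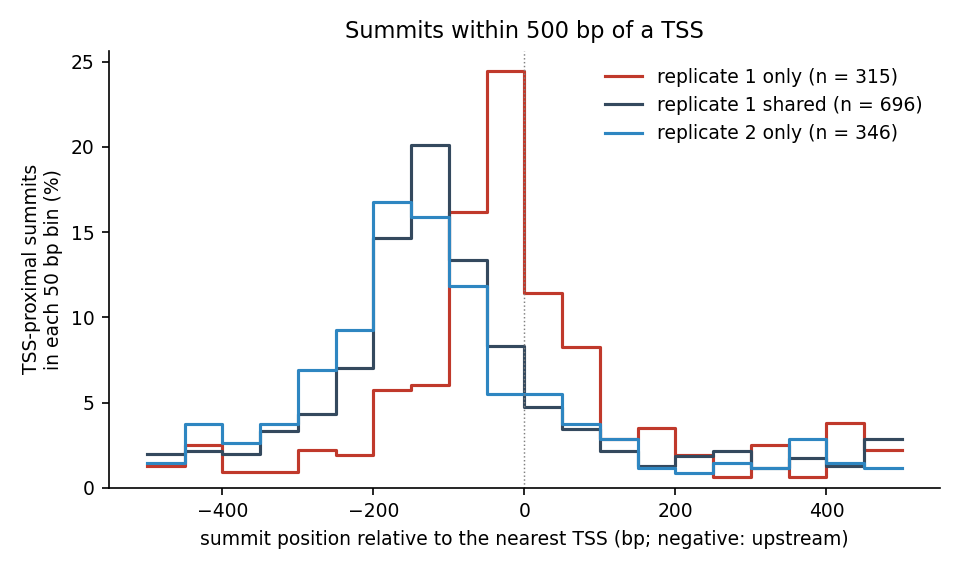
Position of summits relative to the nearest TSS (horizontal axis, bp, negative upstream) as the share of all summits within 500 bp of a TSS (vertical axis, %, in 50 bp bins), for peaks called in replicate 1 only (red, n = 315), shared peaks of replicate 1 (dark, n = 696) and peaks called in replicate 2 only (blue, n = 346). The red line peaks next to the TSS, and the other two peak between 100 and 200 bp upstream.

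Where members lay outside promoters, introns came first. Introns held 29.8% of members and 31.6% of shared peaks, and intergenic DNA 13.6% and 12.7%. Of the 7 genomic classes, coding sequence was the only class that passed the test, with 13 members (2.07%) against 4 shared peaks (0.292%), an odds ratio of 6.67 (2.28 to 19.5; adjusted p = 0.00115, Fisher's exact test). The strongest coding members lay nearest to the start sites of asRNA:CR46005, with a signal of 59.0, and CG15760, with 53.1. Their counts are small, 2 of the 13 overlapped each other at scyl, and the call was lost under 3 alternatives. The odds ratio was 6.38 in the signal range above (4 of 313 members against 0 of 219 shared peaks), 2.82 with a TSS limit of 1000 bp and 2.19 in the stronger part of each set. Promoters with a second coding gene on the other strand made up 81 of 291 member promoters of coding genes (27.8%) and 147 of 638 shared ones (23.0%), with an odds ratio of 1.29 (0.942 to 1.77; adjusted p = 0.18, Fisher's exact test). Over the alternatives this ratio ran from 0.709 to 2.45, so its direction was not stable.

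Of 4 kinds of gene and 6 chromosome arms, 0 passed Fisher's exact test between members and shared peaks, and 0 had an unadjusted p below 0.05. Start sites of tRNA genes were within 500 bp of 5 members (0.797%) and 3 shared peaks (0.219%). Lim1, a LIM-homeobox gene, was the nearest gene of the most members, 4 peaks in introns with signals of 42.1 to 63.3. Su(z)2, psq, Pdp1, CG14434 and scyl were nearest to 3 each.

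The DRE was more frequent at members than at shared peaks. Of 17 motifs searched on both strands within 50 bp of the summit, it was the 1 that passed the test, in 20 of 627 members (3.19%) and 13 of 1369 shared peaks (0.9496%), an odds ratio of 3.39 (1.69 to 6.78; adjusted p = 0.0088, Fisher's exact test). All windows of this length centred on the 19252 TSSs of coding genes held TATCGATA in 4.48%. Among peaks near a TSS the shares were 5.71% for members, 1.72% for shared peaks and 0.578% for peaks called in replicate 2 only. The 4.48% of coding TSS windows thus lay between members and shared peaks. Windows at peaks were centred on the summit, which was within 50 bp of the TSS in 35.9% of these members and 13.2% of these shared peaks. The part of summit position in the DRE difference was not tested. Of the 20 members with a DRE, 18 were near a TSS, each within 100 bp of it. Of the 20, 6 lay at ribosomal protein genes, 3 at translation factor genes and 11 at neither. The call was lost in the signal range above (odds ratio 1.82), with a window of 25 bp to each side (1.90) and with windows of 35 to 45% GC (1.76). With 100 bp to each side it was kept narrowly, at an odds ratio of 2.14 (adjusted p = 0.0499, Fisher's exact test).

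The other motifs did not pass the test between members and shared peaks. CGATA, the BEAF-32 core that every DRE also holds, was found in 19.3% and 15.0%, an odds ratio of 1.36 (1.06 to 1.74; adjusted p = 0.16, Fisher's exact test). Among peaks near a TSS, 26.3% of members, 15.1% of shared peaks and 13.9% of peaks called in replicate 2 only held it, shares that were not tested. It was in 23.6% of all coding TSS windows. GAGAGAG was found in 13.2% of members and 16.2% of shared peaks (adjusted p = 0.32, Fisher's exact test), against 1.54% of coding TSS windows. The difference of both sets from those windows was not tested.

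Peaks called in only 1 replicate differed in sequence according to the replicate. Set against the 731 peaks called in replicate 2 only, 11 of the 17 motifs passed Fisher's exact test, 8 of them more frequent in replicate 1 only. The number was 6 with signals kept between the quartiles of each set and 7 with a window of 25 bp to each side. Of the 11, the DRE alone also passed the test between members and shared peaks. GAGAGAG was in 13.2% against 2.74% (odds ratio 5.32, adjusted p = 2.60e-12, Fisher's exact test). The DRE was in 3.19% against 0.410% (odds ratio 7.02, exact test, adjusted p = 0.000185) and CGATA in 19.3% against 12.2% (1.72, adjusted p = 0.00082). GGTCACAC, the core of the motif 1 promoter element, was in 1.91% against 0.274% (5.93, exact test, adjusted p = 0.0092) and in 4.68% of all coding TSS windows. CAGCTG, an E-box, was in 7.02% against 2.05% (3.53, exact test, adjusted p = 2.43e-05) and in 8.77% of all coding TSS windows. GCCAT was in 24.6% against 12.3% (2.31, exact test, adjusted p = 2.80e-08) and in 16.8% of all coding TSS windows. AGNTGGCGC, the CTCF core, and CACACAC, a simple repeat, also passed the exact test, at 1.75% against 0.410% (adjusted p = 0.042) and 6.06% against 3.01% (adjusted p = 0.013), with 0.364% and 3.19% of all coding TSS windows. These calls were the least stable: over 10 alternatives, that of AGNTGGCGC was lost in 6 (without arm X the odds ratio was 1.86, against 3.88), that of CACACAC in 5 with 1 more in the other direction, and that of GGTCACAC in 5. The strongest members with these letters included CG17574 and nej for CGATA, CG32512 and eEF1alpha1 for GGTCACAC, CG14434 and RpS21 for CAGCTG, Sp1 and fd102C for GCCAT, lncRNA:CR45480 and CG14762 for AGNTGGCGC, and CG7567 and Raf for CACACAC. Shared peaks held CAGCTG in 6.94%, GCCAT in 26.3%, AGNTGGCGC in 1.68%, CACACAC in 8.40% and GGTCACAC in 0.9496%.

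The 3 motifs that were less frequent in replicate 1 only than in replicate 2 only consist of A and T alone. Shared peaks held TATAAA in 11.0%, TAATTA in 3.65% and AAAAAAAA in 3.43%. TATAAA was in 8.93% against 20.7% (odds ratio 0.379, adjusted p = 1.27e-08, Fisher's exact test), and in 15.5% of all coding TSS windows. TAATTA, a homeodomain core, was in 3.83% against 12.3% (odds ratio 0.288, adjusted p = 4.80e-08, exact test) and in 2.99% of all coding TSS windows. The run AAAAAAAA was in 3.99% against 8.89% (odds ratio 0.431, adjusted p = 0.00067, exact test) and in 4.41% of all coding TSS windows. The strongest members with these letters were CG16753 and mir-4943 for TATAAA, CG7768 and l(3)72Dn for TAATTA, and RpL17 and lncRNA:bxd for AAAAAAAA. The other 6 motifs passed neither comparison. GTATNTTT, the core of the motif 6 promoter element, was in 3.03% of members and 4.60% of all coding TSS windows. The E-box CACGTG was in 1.12% and 1.82%, the Zelda site CAGGTAG in 0.797% and 0.483%, the heat shock element GAANNTTC in 1.75% and 3.25%, and the GATA factor site GATAAG in 5.26% and 5.50%. The Grainyhead site AACCGGTT was in 0 of 627 members, which allows a share of up to 0.478% at a limit of 3 counts (Wilson upper bound 0.609%), and in 0.182% of all coding TSS windows.

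**Figure D4:**
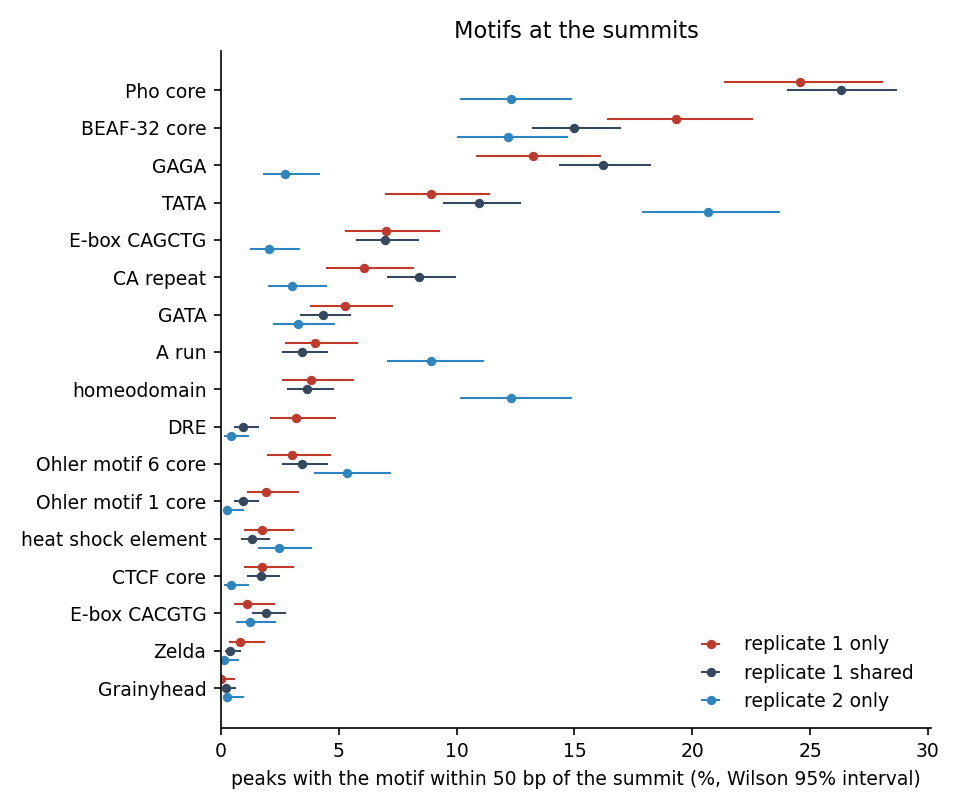
Share of peaks (horizontal axis, %, points with Wilson 95% intervals) that hold each of 17 motifs (vertical axis) within 50 bp of the summit, for peaks called in replicate 1 only (red), shared peaks of replicate 1 (dark) and peaks called in replicate 2 only (blue). Red and dark points lie close together for most motifs, with the DRE apart at 3.19% and 0.9496%, and blue points stand apart for GAGA (2.74%), TATA (20.7%) and the homeodomain core (12.3%).

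Base composition moved with these differences. The median GC content within 50 bp of the summit was 47.5% for members (quartiles 41.6 and 53.5), 48.5% for shared peaks (35.6 and 55.4) and 32.7% for peaks called in replicate 2 only (26.7 and 40.6). GC content was above 45% in 62.8% of members, 59.6% of shared peaks and 17.6% of peaks called in replicate 2 only. The gap was as wide near a TSS, with medians of 47.5% and 31.7%, as away from it, with 48.02% and 32.7%. In windows of 35 to 45% GC, a range chosen after seeing the data, none of the 17 motifs passed the test between the 2 sets, and 1 had an unadjusted p below 0.05. This range kept 155 members and 164 peaks called in replicate 2 only, so smaller sets alone could lose a call. There CACACAC had an odds ratio of 0.913 and AAAAAAAA of 1.30, each on the other side of 1. The other called motifs kept their side, among them GAGAGAG at 2.499, GCCAT at 1.71, TAATTA at 0.446, CGATA at 1.12 and TATAAA at 0.811. All of those others but AGNTGGCGC (12.02, in 5 members against 0 peaks) lay closer to 1 than in the full sets. Each of these 2 sets comes from 1 library, so library and peak set cannot be told apart. Whether GC-dependent recovery differed between the libraries was not tested, since the lists hold no reads.

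**Figure D5:**
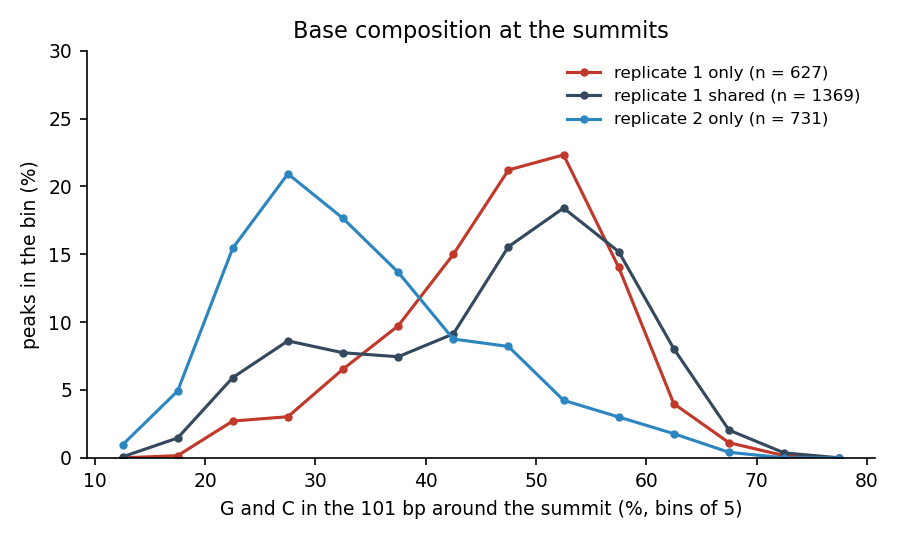
Share of peaks (vertical axis, %) by GC content within 50 bp of the summit (horizontal axis, %, bins of 5), for peaks called in replicate 1 only (red, n = 627), shared peaks of replicate 1 (dark, n = 1369) and peaks called in replicate 2 only (blue, n = 731). The blue line peaks at low GC content (median 32.7%), the red line at higher GC content (median 47.5%), and the dark line (median 48.5%) has a main peak near that of the red line and a lower one near that of the blue line.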

How the data were processed

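The deposited peak lists were in dm6 coordinates. Per the deposited file lists, each was made by irreproducible discovery rate ranking or thresholding of peaks from the replicates' alignments and a further shared file; aligner, caller and control: not given in the sources used here. The authors' score in the deposited lists was a whole number of up to 1000, and the authors' signal value has no stated scale. In the series' ranked lists, 16 columns with no replicate name were not used. Members and gene lists were chosen with earlier results of these data known. A TSS was the 5′ end of any transcript of 18164 genes in Ensembl release 115, without transposable elements; 1 listed symbol had no match. Motifs were sought within 50 bp of summits in RefSeq's copy of dm6. Named are the genes nearest to the 20 strongest members and to the 5 strongest without a ranked replicate 2 peak, up to 4 genes per list, and the 2 strongest members per called motif. A gene and a sequence are not reported here. Edge, coding and multi-peak genes were named after their values were seen. Fisher's exact tests were two-sided and adjusted within each family (threshold 0.05); odds ratios had 0.5 added to each cell; intervals are 95%. The tests were checked on simulated independent counts. Dependence between peaks was not part of that check, and 40 members overlapped another row of their list. Python 3.11.15, pandas 2.3.3 and scipy 1.17.1 were used.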

Additional observations from a re-analysis of the deposited data

How the results depend on the processing

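The upstream share kept its direction under the 10 alternatives tried and its call under all but the signal range between the members' quartiles (odds ratio 0.602). Here and in the counts below, the peak midpoint varied the input little, with 197 of 313 members upstream against 196 of 312 by summit. Near-TSS shares of members and shared peaks changed order with a TSS limit of 200 bp (odds ratio 1.22), in that signal range (1.17) and when a shared peak had to be covered by 50% (1.01); none of these passed the threshold. Against replicate 2 only, the 200 bp limit alone gave a call (1.52). Promoters with a second gene on the other strand changed order at 200 bp (0.709) and in the signal range (0.877) and were called at 1000 bp (1.41) and in the stronger part of each set (2.45). Of the genomic classes, 0 were called at 1000 bp, 0 in the signal range, 0 in the stronger part and 2 without arm X, against 1. Of the motifs against shared peaks, 0 were called in the signal range, 3 when members lacked any replicate 2 peak scoring 540 or more, 4 with 100 bp to each side and 0 at 35 to 45% GC, against 1. Against replicate 2 only, 6 were called in the signal range, 7 with 25 bp to each side and 0 at 35 to 45% GC, where CACACAC (0.913) and AAAAAAAA (1.30) changed order, against 11. The causes were not tested. Of the values for single classes and motifs, 33 lost their call, 95 kept it and 2 changed order. The GC range and a minimum distance of 1000 bp to replicate 2 peaks were chosen after seeing the data. The GC range kept only 155 members, 227 shared peaks and 164 peaks called in replicate 2 only. No paired analysis was possible because both replicates belong to 1 group; leaving out a replicate gave no value, since membership needs both. Unknown depth, n = 2 and a control not analysed here limit every comparison.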
